A study of Mus musculus with 16 samples.

Results

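The genes described here read, write and erase N6-methyladenosine (m6A), the methyl mark that sits on adenosines inside messenger RNA. The 10 genes were found by symbol in a table of 17715 entries: the YTH-domain readers Ythdf1, Ythdf2, Ythdf3, Ythdc1 and Ythdc2, the writers Mettl3, Mettl14 and Wtap, and the erasers Fto and Alkbh5. The set was proposed with the values of these same libraries known, so the levels and differences of the 10 genes are given as a description, with no test. RNA was sequenced from endothelial cells that had been sorted from the lungs of female C57BL/6N mice. Each group had 4 libraries, which the series calls independent biological replicates. The groups were mice without a tumour (d0), mice that carried a primary tumour (d15), mice whose tumour had been resected (d22) and mice with metastases (d36). The tumours grew from Lewis lung carcinoma (LLC) cells, a mouse lung tumour line, implanted under the skin. The surface markers and gate of the sort, and whether d0 mice had a sham procedure, are not described in the labels. The library called d36 replicate 1 has a title that names day 29 and a time point field that reads d36, and the field was followed.

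m6A is laid down in the nucleus by a complex in which METTL3 carries the catalytic site, METTL14 forms the RNA-binding platform and WTAP anchors the pair in nuclear speckles. FTO and ALKBH5, iron- and oxoglutarate-dependent dioxygenases, can take the methyl group off again. Proteins with a YTH domain bind the mark: YTHDF2 is known for hastening the decay of marked transcripts, YTHDF1 and YTHDF3 have been tied to their translation and decay, YTHDC1 works in the nucleus in splicing and export, and YTHDC2 is an RNA helicase needed for meiosis in germ cells. In the embryonic endothelium of zebrafish and mice, Mettl3 is known to be needed for blood stem cells to emerge from vessel walls.

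The 3 Ythdf genes code for close relatives, and reads shared between paralogs could blur their separate levels, so a stretch of coding sequence is shown here from the YTH domain of each. The stretches come from the GENCODE M21 annotation on build GRCm38 and are written in the sense of the gene. In Ythdf3, capitals mark the bases at which Ythdf1 or Ythdf2 differs, and in the other genes they mark the bases that differ from Ythdf3.
Ythdf3: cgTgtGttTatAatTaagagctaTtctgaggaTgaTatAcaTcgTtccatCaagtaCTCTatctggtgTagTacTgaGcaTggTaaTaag
Ythdf1: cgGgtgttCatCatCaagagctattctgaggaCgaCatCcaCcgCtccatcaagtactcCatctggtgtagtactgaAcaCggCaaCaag
Ythdf2: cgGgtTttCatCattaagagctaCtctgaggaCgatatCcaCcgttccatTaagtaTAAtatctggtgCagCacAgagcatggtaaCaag
The Ythdf3 stretch lies in exon 5 at chr3:16204939-16205028 on the plus strand, the Ythdf1 stretch in exon 5 at chr2:180911083-180911172 on the minus strand and the Ythdf2 stretch in exon 4 at chr4:132204528-132204617 on the minus strand. Of 90 bases, Ythdf1 shares 76 with Ythdf3, with a longest identical run of 17 bases, and Ythdf2 shares 74, with a longest run of 11. The Ythdf3 stretch was chosen for the highest summed identity to both relatives among its in-frame coding stretches of this length. These shares are therefore not typical of the whole genes. Over their longest annotated transcripts, Ythdf1 and Ythdf3 shared no 31-base word with any other annotated gene. Ythdf2 shared 14.3% of its words with others, of which 529 of 585 were with the annotated gene Gm6823. Mettl3 shared 30.6%, with Tox4, Wtap 10.8%, with Gm14292, and Ythdc1 9.18%, nearly all with Gm43055, and the levels of these 4 genes are less certain for that reason.

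Every gene of the set was measured in every library, and their levels spanned a wide range. RPKM values, which are reads per kilobase of transcript per megaread and can be compared between genes, averaged 42.2 for Wtap, 27.5 for Fto, 27.0 for Ythdf2, 17.0 for Mettl3, 9.59 for Ythdf1, 7.71 for Mettl14, 5.13 for Alkbh5, 3.98 for Ythdf3, 0.846 for Ythdc1 and 0.818 for Ythdc2 over the 16 libraries. In this order the library ranges of Mettl3 and of its neighbours Ythdf2 and Ythdf1 did not overlap, nor did those of Ythdf3 and Ythdc1. The ranges of all other neighbours overlapped. Mettl14 was nevertheless above Alkbh5 within each of the 16 libraries. The depth, estimated from the steps between low RPKM values, was approximately 93.5 to 152.0 M (mega) reads. With the length of the longest transcript, it put approximately 364 to 1028 reads behind each value of Ythdc1 and Ythdc2. For Ythdf3 it put approximately 925 to 3928 behind each value. A shorter transcript would lower these read numbers.

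The libraries held high levels of endothelial marker genes and, in every group, genes of other cells, which differed between groups. The 9 endothelial markers, among them Pecam1, Cdh5 and Kdr, summed to 3060 to 3465 RPKM at d0, 2636 to 3291 RPKM at d15, 2631 to 3007 RPKM at d22 and 2196 to 2628 RPKM at d36, so that every d22 and d36 library lay below every d0 library. Of the 9, Tie1 alone passed the test, with a log2 fold change of -0.69 at d36 against d0 (limma adjusted p = 0.000603). The d36 replicates 1, 7 and 8 stood apart from all others on principal component 1, with scores of 46.6, 57.5 and 42.9, against -4.79 for d36 replicate 9. Tumour cell genes (Krt7, Krt8, Krt18, Krt19, Rhox5) summed to 22.4 to 300.5 RPKM at d36, against 3.56 to 6.76 RPKM at d0. Of the 5, 3 rose in the test described below, beside 16.6% of all tested entries. Rhox5, 1 of these 3, reached the filter of 1 RPKM in 4 libraries only through d36. Leukocyte genes, 9 of 10 in the table, summed to 46.1 to 142.0 RPKM at d36, against 32.2 to 40.1 RPKM at d0. Of these sums, Lcp1 alone was 33.4 to 43.8 RPKM at d36 and 31.4 to 35.8 RPKM at d0. Lcp1 did not pass, while 6 of the 7 tested leukocyte genes rose at d36, beside 16.6% of all tested entries. These 6 reached the filter on low values only through their d36 libraries, so their rises are a description. The 12 cell cycle genes summed to 29.5 to 146.0 RPKM at d36, against 16.1 to 18.4 RPKM at d0. At d15 and d22, no gene of these 3 lists passed the test against d0. Krt8 was nevertheless above all d0 libraries, at 1.67 to 2.61 RPKM at d15 and 1.44 to 2.66 RPKM at d22. It was at most 1.15 RPKM at d0, and the other tumour cell genes overlapped d0 at both times. Tumour cell sums ran from 6.21 to 9.93 RPKM at d15 and from 6.10 to 8.88 RPKM at d22. Cell cycle sums at d22 were 35.8, 22.4, 22.2 and 15.1 RPKM in replicates 1, 4, 5 and 6, of which 3 lay above every d0 and d15 library. Lung epithelial genes, 5 of 6 in the table, were led by Scgb1a1 and the surfactant gene Sftpc. They summed to 759 to 1941 RPKM at d0 and 1232 to 3393 RPKM at d15. At d22 they summed to 1096 to 1577 RPKM and at d36 to 328 to 1087 RPKM. Macrophage genes, 5 of 6 in the table, summed to at most 43.8 RPKM at d0 and 46.7 to 132.8 RPKM at d15. They summed to 16.8 to 59.5 RPKM at d22 and 51.1 to 127.8 RPKM at d36. Every d15 and d36 sum lay above every d0 sum, but Lyz2 alone was at 44.9 to 130.8 RPKM at d15. At d15, 0 of the 3 tested macrophage genes passed against d0, and Cd68, at 1.76 to 3.08 RPKM, overlapped d0. At d36, 2 of the 3 rose, of which Marco entered the test only through its d36 libraries. The part of these genes in the differences given below was not tested. In sorted bulk samples, fewer cells of a type and less RNA per cell cannot be told apart.

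Ythdf3, the cytoplasmic reader tied to both translation and decay, had the widest span of group means of the 10 genes. At d0 it was at 1.91, 2.16, 2.19 and 1.75 RPKM in replicates 1 to 4. At d15 it was at 3.85, 2.91, 3.53 and 3.50 RPKM in replicates 3 to 6, and at d22 at 4.65, 5.11, 4.98 and 5.70 RPKM in replicates 1, 4, 5 and 6. At d36 it was at 5.07, 5.40, 5.14 and 5.88 RPKM in replicates 1, 7, 8 and 9. Every d15 library lay above every d0 library, and every d22 library above every d15 library, while the d22 and d36 libraries overlapped. Group means were 2.00 ± 0.213, 3.45 ± 0.391, 5.11 ± 0.436 and 5.37 ± 0.368 RPKM (SD, n = 4 each) at d0, d15, d22 and d36. The log2 fold change of Ythdf3 on the log2(RPKM + 1) scale was 0.56 ± 0.10 for d15 against d0, 1.02 ± 0.10 for d22 against d0 and 1.09 ± 0.10 for d36 against d0 (SE of limma). Between successive groups it was 0.46 ± 0.10 for d22 against d15 and 0.06 ± 0.10 for d36 against d22. Adding 1 before taking logs shrinks the change of low genes: the authors' deposited table, whose unnamed comparison follows the ratio to d0, gives log2 fold changes of 0.81, 1.36 and 1.41 for Ythdf3 at d15, d22 and d36.

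**Figure D1:**
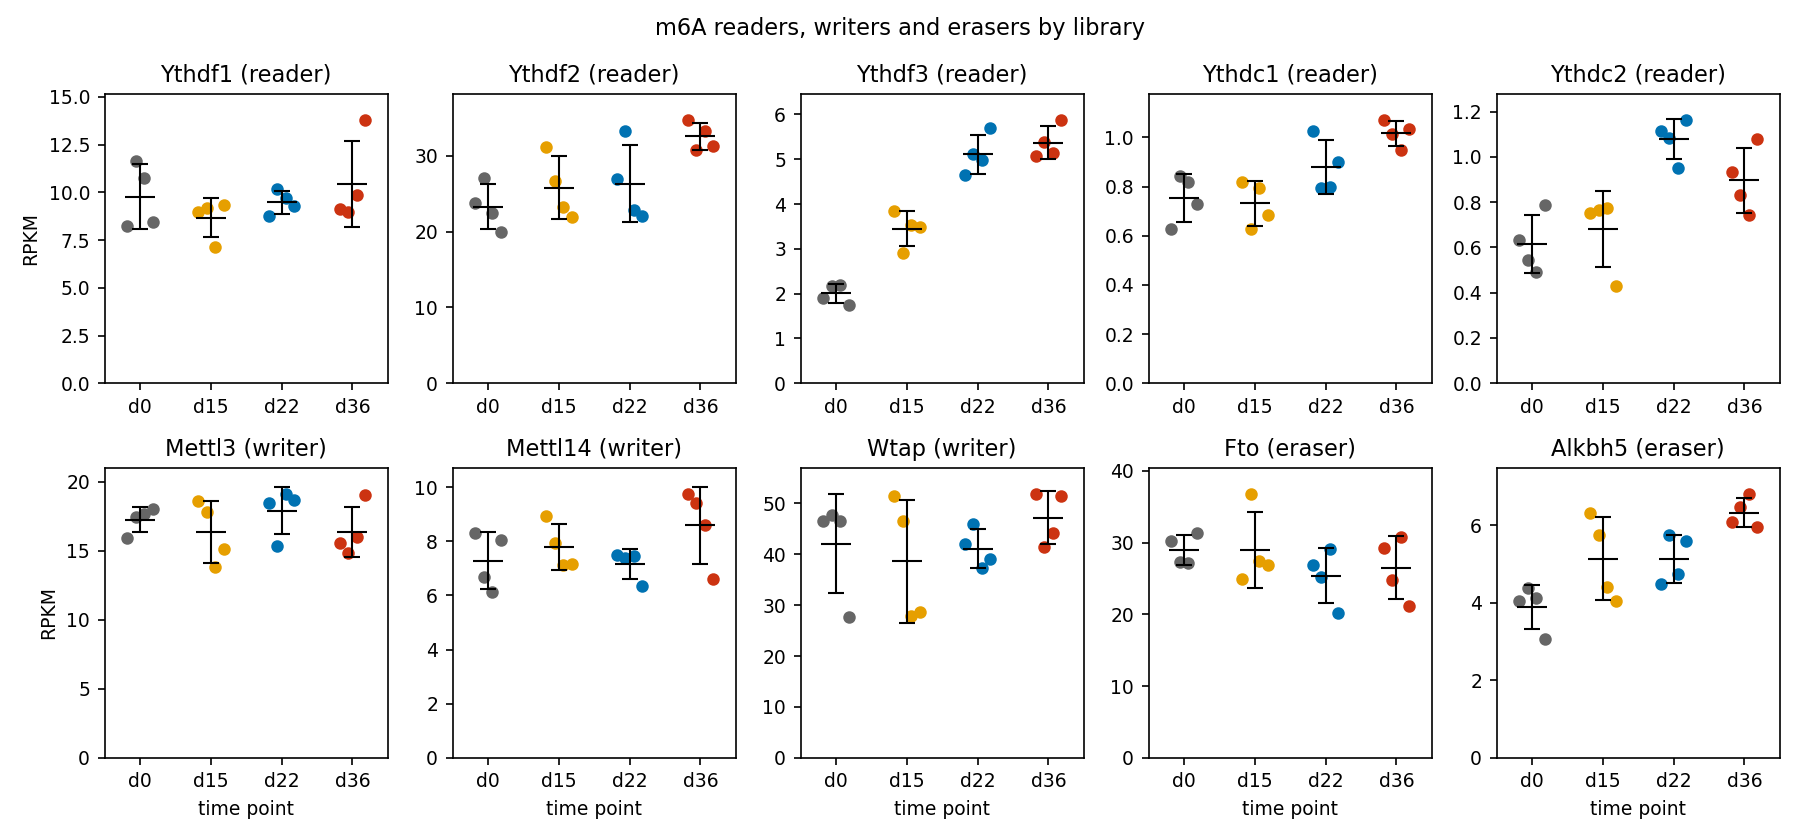
RPKM (vertical axes, from 0, a separate scale for each gene) of the 10 genes at d0, d15, d22 and d36. Each point is a library and the bars are the mean ± SD of 4; the Ythdf3 points step up at d15 and again at d22, while those of Mettl3 and Ythdf1 overlap in all 4 groups.

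The values of Ythdf3 and of the marker sums can be set side by side in each library. In d36 replicate 9, which had the lowest sums of the 4 for tumour cell genes (22.4 RPKM), leukocyte genes (46.1 RPKM) and cell cycle genes (29.5 RPKM), Ythdf3 stood at 5.88 RPKM, the highest of all 16 libraries. In d36 replicate 1, with the highest tumour cell sum (300.5 RPKM), it stood at 5.07 RPKM. At d22, tumour cell genes summed to 6.10 to 8.88 RPKM and leukocyte genes to 30.7 to 39.2 RPKM, sums that overlap those of d15. The d0 tumour cell sums were 3.56 to 6.76 RPKM. Ythdf3 at d22 was at 4.65 to 5.70 RPKM. The cell cycle sum was above all d0 and d15 libraries in 3 of the 4 d22 libraries, and Ythdf3 was highest at d22 in replicate 6, where that sum was lowest. The sums of lung epithelial genes (1577 RPKM), macrophage genes (59.5 RPKM) and mesenchyme genes (4.90 RPKM) were the highest of d22 in that replicate. In d36 replicate 9, the lung epithelial sum (1087 RPKM) was the highest of d36, and the macrophage (51.1 RPKM) and mesenchyme (1.36 RPKM) sums were the lowest. In d36 replicate 9 the tumour cell sum was still above that of every library of the other groups (at most 9.93 RPKM). Of the leukocyte sum there, Lcp1 was 33.4 RPKM, and each other leukocyte gene in the table was above all d0 libraries. The part of other cells in the Ythdf3 level was not tested.

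**Figure D2:**
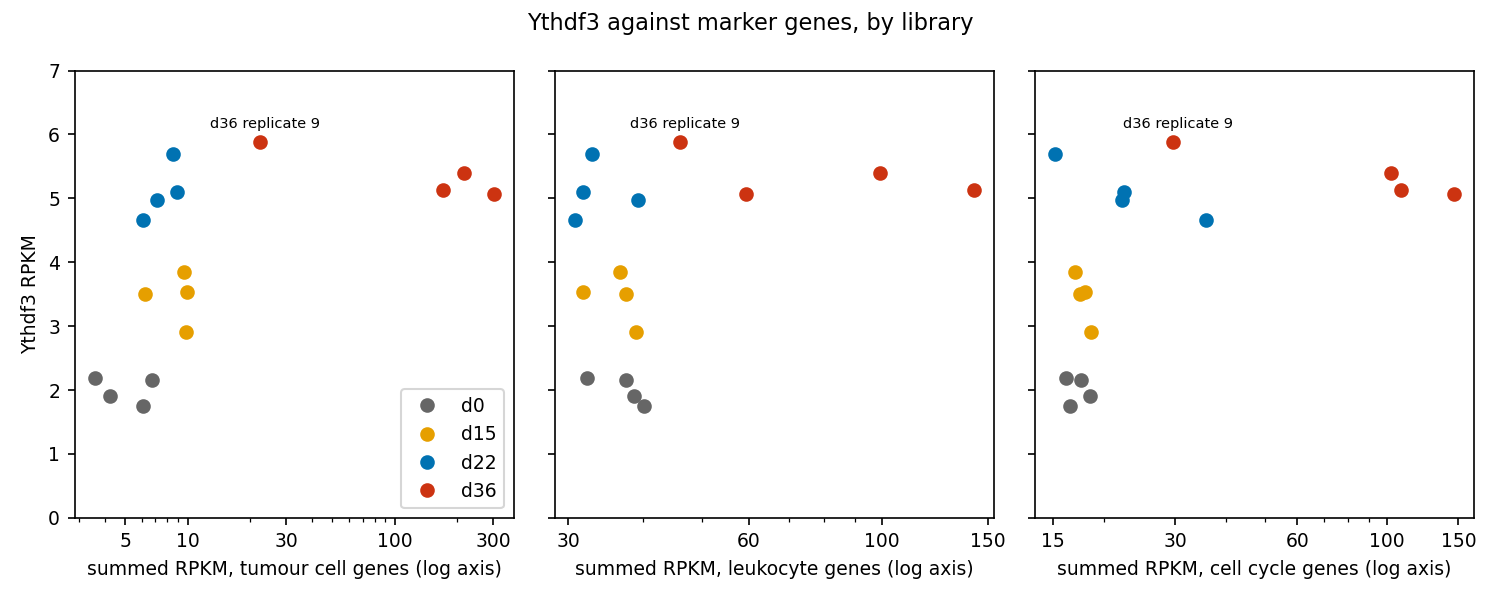
Ythdf3 RPKM (vertical axis) of each of the 16 libraries against the summed RPKM of tumour cell, leukocyte and cell cycle genes (horizontal log axes), coloured by group. The d22 libraries reach 4.65 to 5.70 RPKM of Ythdf3 with tumour cell and leukocyte sums near those of d15. The d36 replicate 9 has the lowest of the drawn marker sums in its group and the highest Ythdf3. Its lung epithelial sum, not drawn, is the highest of d36. Lcp1 makes up most of every leukocyte sum at d0, d15 and d22.

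Ythdf2, the reader known for transcript decay, was much more abundant than Ythdf3 and differed less between groups. It was at 23.7, 27.1, 22.5 and 20.0 RPKM at d0, at 31.2, 26.7, 23.3 and 22.01 RPKM at d15 and at 27.0, 33.3, 22.9 and 22.1 RPKM at d22, in the order of replicates given for Ythdf3. At d36 it was at 34.8, 30.8, 33.4 and 31.4 RPKM. The d15 and d22 libraries overlapped those of d0, and every d36 library lay above every d0 library. The log2 fold change of Ythdf2 was 0.14 ± 0.14, 0.16 ± 0.14 and 0.47 ± 0.14 for d15, d22 and d36 against d0.

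Ythdf1, the third cytoplasmic reader, showed no separation between groups: means were 9.77 ± 1.69, 8.66 ± 1.02, 9.48 ± 0.609 and 10.4 ± 2.27 RPKM (SD, n = 4 each) at d0, d15, d22 and d36. Its highest library was d36 replicate 9, at 13.8 RPKM, and the other 3 libraries of d36 were between 8.97 and 9.85 RPKM. As a share of the summed RPKM of Ythdf1, Ythdf2 and Ythdf3, Ythdf3 made up 5.73 ± 0.376% at d0, 9.16 ± 1.32% at d15, 12.7 ± 2.13% at d22 and 11.1 ± 0.746% at d36 (SD, n = 4 each). The sum itself was 35.1 ± 4.47, 37.9 ± 4.61, 40.9 ± 5.31 and 48.4 ± 2.43 RPKM in the same order. By library, the share ran from 7.49 to 10.4% at d15 and from 10.5 to 15.4% at d22, both ranges above the 5.29 to 6.19% of d0, so the make-up of the trio shifted towards Ythdf3 in every library taken after implantation, with Ythdf2 the most abundant of the 3 throughout.

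The readers with a YTHDC name, nuclear Ythdc1 and the helicase Ythdc2, were near the lower limit of what was tested. Each reached 1 RPKM in 4 libraries only, all of them from d22 or d36, so they entered the test through the groups in which they were high. Ythdc2 was at 0.634, 0.547, 0.492 and 0.788 RPKM at d0 and at 0.754, 0.765, 0.775 and 0.432 RPKM at d15. It was at 1.12, 1.08, 0.953 and 1.16 RPKM at d22 and at 0.931, 0.832, 0.743 and 1.08 RPKM at d36. Its d22 libraries lay above all of d0 and d15, and its d36 libraries overlapped those of d0 and d22. The log2 fold change of Ythdc2 was 0.37 ± 0.10 for d22 and 0.23 ± 0.10 for d36 against d0 on the log2(RPKM + 1) scale, and the authors' deposited table gives 0.82 and 0.53.

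Ythdc1 was at 0.628, 0.844, 0.817 and 0.728 RPKM at d0, at 0.821, 0.628, 0.796 and 0.686 RPKM at d15 and at 1.03, 0.796, 0.799 and 0.901 RPKM at d22. At d36 it was at 1.07, 1.01, 0.951 and 1.04 RPKM. The d36 libraries of Ythdc1 did not overlap those of d0 or d15, and its log2 fold change was 0.20 ± 0.09 for d36 against d0. A long noncoding gene on the same strand, Gm43055, covers 4.62% of the exon bases of Ythdc1, so reads there cannot be told apart.

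The writers differed little between groups. Mettl3, the catalytic subunit, averaged 17.3 ± 0.901, 16.4 ± 2.25, 17.9 ± 1.71 and 16.4 ± 1.84 RPKM (SD, n = 4 each) at d0, d15, d22 and d36, and its log2 fold changes in the 5 comparisons lay between -0.12 and 0.13. The gene Tox4 runs on the opposite strand across 18.4% of the exon bases of Mettl3, and strand use in the counting is not described in the labels, so part of the Mettl3 level may belong to Tox4. Mettl14, the platform subunit, averaged 7.29 ± 1.06, 7.79 ± 0.842, 7.17 ± 0.546 and 8.59 ± 1.41 RPKM, and its groups overlapped. Wtap, the adaptor, averaged 42.1 ± 9.68, 38.6 ± 12.1, 41.1 ± 3.85 and 47.2 ± 5.22 RPKM.

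The spread of Wtap within groups was close to its differences between them: on the log2(RPKM + 1) scale its group means spanned 0.33, beside an SD within groups of 0.31. It stood at 27.6 RPKM in d0 replicate 4, at 27.9 RPKM in d15 replicate 5 and at 28.6 RPKM in d15 replicate 6, against 37.2 to 51.7 RPKM in the other 13 libraries. The log2 fold changes of Wtap against d0 were -0.14, -0.01 and 0.19 for d15, d22 and d36, each with an SE of 0.20.

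Of the erasers, Alkbh5 was higher in every d36 library than at d0, and Fto overlapped in all groups. Alkbh5 was at 4.04, 4.37, 4.12 and 3.08 RPKM at d0, at 6.31, 5.76, 4.42 and 4.06 RPKM at d15 and at 4.48, 5.75, 4.74 and 5.59 RPKM at d22. At d36 it was at 6.09, 6.47, 6.80 and 5.97 RPKM. One d15 library was within the range of d0, the d22 libraries lay narrowly above those of d0, and the d36 libraries lay above all of d0 and d22. The log2 fold change of Alkbh5 was 0.32 ± 0.13, 0.33 ± 0.13 and 0.59 ± 0.13 for d15, d22 and d36 against d0, and 0.26 ± 0.13 for d36 against d22.

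Fto, the other eraser, ran from 27.1 to 31.3 RPKM at d0, from 24.9 to 36.7 RPKM at d15, from 20.1 to 29.2 RPKM at d22 and from 21.2 to 30.8 RPKM at d36, so its groups overlapped. Its log2 fold changes against d0 were -0.01, -0.20 and -0.14 for d15, d22 and d36, each with an SE of 0.14. The value at d15 is close to 0 and its sign depends on the setting: the authors' deposited table gives 0.05. The difference between the erasers was not tested.

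**Figure D3:**
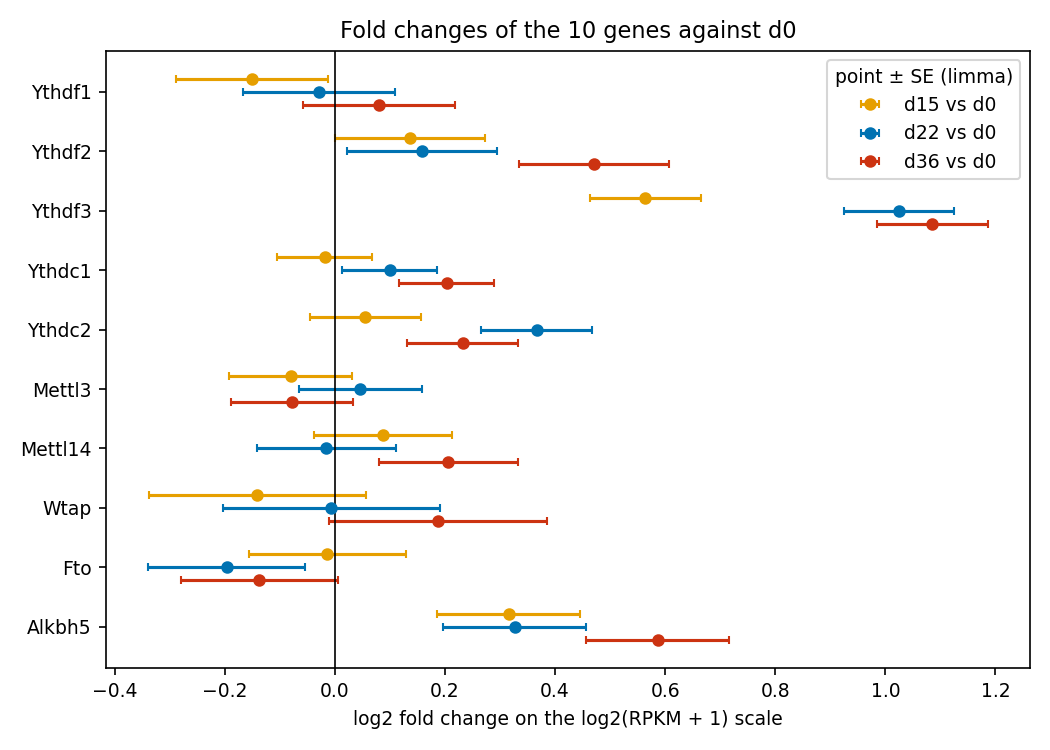
Log2 fold changes on the log2(RPKM + 1) scale (horizontal axis) of the 10 genes against d0 at d15, d22 and d36, as points with the SE of limma. Ythdf3 lies at 0.56, 1.02 and 1.09, Alkbh5 at 0.32, 0.33 and 0.59, and the writers Mettl3, Mettl14 and Wtap lie between -0.14 and 0.21.

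The background over the whole table was counted with limma at an adjusted p (Benjamini-Hochberg over 14303 tested entries) under 0.05. At d15 against d0, 0.608% of all tested entries rose and 0.573% fell, and of the 10 genes Ythdf3 was above the threshold. At d22 against d0, 8.09% rose and 7.10% fell, and Ythdf3 and Ythdc2 were above it. At d36 against d0, 16.6% rose and 7.37% fell, and Ythdf3, Alkbh5 and Ythdf2 were above it. No gene of the set passed in the other direction in any comparison, and since the set was proposed with these contrasts known, nothing is read from these counts.

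At d22 against d15, 2.00% of entries rose and 1.06% fell, and Ythdf3 was above the threshold. At d36 against d22, 8.73% rose and 3.07% fell, and none of the 10 genes passed in limma, with 1 at an unadjusted p under 0.05. The 4 later libraries lay above all 4 d0 libraries for 5.34% of entries at d15, 14.2% at d22 and 13.9% at d36. Of the 10 genes this held for Ythdf3 at d15, for Ythdf3, Ythdc2 and Alkbh5 at d22, and for Ythdf3, Alkbh5, Ythdf2 and Ythdc1 at d36. The median log2 fold change of the 10 genes was 0.02, 0.07 and 0.20 at d15, d22 and d36 against d0, beside -0.02, 0.02 and 0.04 over all tested entries. The 3 comparisons share the d0 libraries and are not independent of each other.

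Transcript length and base composition moved with the fold changes across the table. Over 10113 tested entries with a matched gene model, the rank correlation of the log2 fold change with the length of the longest transcript was 0.246, 0.416 and 0.227 at d15, d22 and d36 against d0, and with its GC content -0.146, -0.355 and -0.356. These correlations are across genes and carry no test. Ythdf3 is long and poor in GC: its longest transcript has 5102 bases at 38.4% GC, at percentiles 81.9 for length and 2.45 for GC of the matched entries, whose medians are 3089 bases and 49.8%. Ythdc1, Wtap, Mettl14 and Ythdc2 are also below the median in GC, at 37.6, 39.6, 41.2 and 42.0%, and Alkbh5 is close to it.

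A smooth trend on length and GC predicted a log2 fold change of 0.33 at d22 and 0.39 at d36 for a transcript like Ythdf3, against the measured 1.02 and 1.09. With that trend removed from each library, the log2 fold change of Ythdf3 was 0.45, 0.69 and 0.70 at d15, d22 and d36 against d0, and 0.24 at d22 against d15. For Ythdc2 the trend predicted 0.31 at d22, and 0.06 was left of its 0.37. For Ythdf2, 0.23 was left of 0.47 at d36, and for Alkbh5, with a predicted 0.16, 0.43 was left of 0.59. Ythdc1 was at -0.29 at d22 with the trend removed, against 0.10 with it kept. The trend used the longest transcripts, of 6313 bases for Ythdc1 and 7197 for Mettl14. Their transcripts with the longest coding sequence have 2960 and 2741 bases, and no trend was fitted on those. The part that length and GC play in these differences was not tested.

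**Figure D4:**
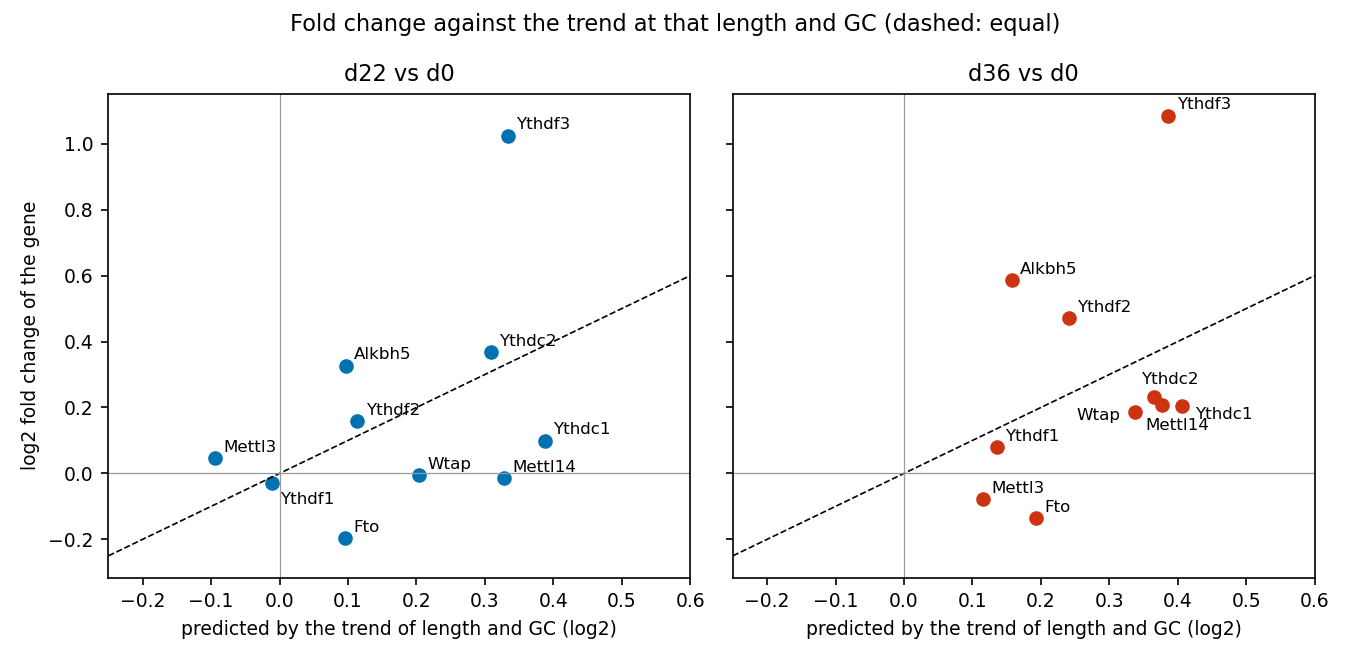
Log2 fold change of each of the 10 genes (vertical axis) against the log2 fold change that the trend on transcript length and GC predicts for it (horizontal axis), for d22 and d36 against d0. The dashed line marks equal values. Ythdf3, at 1.02 against a predicted 0.33 and at 1.09 against 0.39, lies farthest above the line. Ythdc1, Mettl14, Fto, Wtap and Ythdf1 lie below the line in both panels.

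The writer complex marks adenosines most often within the motif GGACT, and the genes of the pathway differ in how often their own transcripts hold it. The motif was counted on the sense strand of the longest transcript. Alkbh5 held it 10 times and Ythdc1 9 times, against 1 time each in Ythdf1 and Ythdf3. The 9 are in the longest Ythdc1 transcript, of 6313 bases. The Ythdc1 transcript with the longest coding sequence, of 2960 bases, holds 0. The median of the matched entries was 1.03 per kilobase, with 1.75 for Alkbh5 and 0.196 for Ythdf3. The only match in Ythdf3 lies in its coding sequence, within the stretch chr3:16204255-16204284 on the plus strand. That stretch is shown with the motif in capitals because it holds the single match of the gene that differed most between groups.
Ythdf3 GGACT: caaggcatgactGGACTgaaaattggtggt
A match is a description of letters and does not show that the site is methylated. Methylation was not measured in these libraries.

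Of 32 partner genes of the pathway, listed by role, 27 were in the table and 26 were tested. The entries for Virma and Rida stood under their older symbols 1110037F02Rik and Hrsp12. Rbm15, Mettl16, Igf2bp1, Igf2bp3 and Fxr1 were not analysed here. At d15 against d0, none of the 26 passed in limma, and 3 had an unadjusted p under 0.05. At d22, 4 rose and 0 fell, and at d36, 10 rose and 0 fell, beside the 8.09% and 16.6% of all entries that rose. The median log2 fold change of the 26 was -0.01, 0.10 and 0.25 at d15, d22 and d36 against d0.

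Among the partners past the threshold at both d22 and d36 were nuclear RNA-binding proteins whose access to RNA m6A can alter. Hnrnpc, which binds stretches of uridine opened by the mark, was at 4.93, 5.06, 5.03 and 6.45 RPKM at d22 and 5.50, 4.80, 5.59 and 6.20 RPKM at d36, against 2.62, 2.76, 2.69 and 2.48 RPKM at d0. Its d22 and d36 libraries lay above all of d0, with log2 fold changes of 0.80 ± 0.16 (adjusted p = 0.00376, limma with Benjamini-Hochberg adjustment) and 0.84 ± 0.16 (adjusted p = 0.00147). Hnrnpa2b1, a nuclear protein tied to marked RNA and microRNA precursors, averaged 65.7 ± 6.20 RPKM at d22 and 66.7 ± 8.05 RPKM at d36, against 43.2 ± 4.63 RPKM at d0 (SD, n = 4 each; log2 fold changes 0.59 and 0.61, limma adjusted p = 0.00354 and 0.00149).

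Fmr1, the fragile X protein that binds marked RNA, rose by log2 fold changes of 0.45 and 0.44 at d22 and d36 against d0 (limma adjusted p = 0.0120 and 0.00838). Among the effectors that readers work through, the splicing factor Srsf10 averaged 14.5 ± 0.514 RPKM at d22 and 15.9 ± 1.60 RPKM at d36, against 10.2 ± 0.354 RPKM at d0 (log2 fold changes 0.47 and 0.58, limma adjusted p = 0.00346 and 0.000371). Srsf3, the splicing factor that acts with YTHDC1 in the opposite sense to Srsf10, rose by 0.37 at d36 (limma adjusted p = 0.0242), a call that was lost without d0 replicate 3 or 4 or d36 replicate 1 or 8 (log2 fold changes 0.33 to 0.36). The other 7 effectors, among them Cnot1, the scaffold of the deadenylase that YTHDF2 recruits, did not pass in either comparison.

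Of the remaining writer complex, Cbll1, an E3 ligase subunit, rose by 0.46 (limma adjusted p = 0.00814) and the zinc finger protein Zc3h13 by 0.37 (limma adjusted p = 0.0404) at d36 against d0, and Virma and Rbm15b did not pass. Of the methyltransferases for ribosomal and cap-adjacent adenosines, Mettl5 rose by 0.53 (limma adjusted p = 0.0125) and Zcchc4 by 0.38 (limma adjusted p = 0.0334). Pcif1 and the partner subunit Trmt112 did not pass. The call of Zc3h13 was lost without d0 replicate 1, 3 or 4 or d36 replicate 8 or 9 (log2 fold changes 0.26 to 0.36), and that of Zcchc4 without d0 replicate 2, 3 or 4 or d36 replicate 1 or 8 (0.31 to 0.40). Both were also lost with median-of-ratios scaling. When only the 2 groups compared were fitted, Cbll1, Zc3h13 and Zcchc4 no longer passed (limma adjusted p = 0.0527, 0.112 and 0.0680). At d22 against d15, Hnrnpa2b1 rose by 0.50 and Srsf10 by 0.37 (limma adjusted p = 0.0291 and 0.0385). The call of Hnrnpa2b1 there was lost without any of d15 replicates 4, 5 and 6 and d22 replicates 1, 5 and 6 (log2 fold changes 0.44 to 0.51), and that of Srsf10 without d15 replicate 4 or 6 or any d22 library (0.33 to 0.38), or with median-of-ratios scaling, or when only the 2 groups compared were fitted (limma adjusted p = 0.0513).

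With the trend on length and GC removed, 3 partners rose at d22 against d0 (Hnrnpa2b1, Hnrnpc, Srsf10). At d36, 3 rose (Hnrnpc, Srsf10, Ahcy) and 2 fell (Pcif1 by 0.28 and Mat2b by 0.42), so the calls of Fmr1, Cbll1, Zc3h13, Mettl5, Zcchc4 and Srsf3 were lost there, and Hnrnpa2b1 was at an adjusted p of 0.0503 in limma. Over the 10113 entries with a gene model, 1020 rose and 1513 fell at d36 with the trend removed, against 2095 risen and 782 fallen of the same entries with the trend kept, so the balance of rises and falls at d36 depends on that setting. At d22 the split was 362 risen and 499 fallen with the trend removed, against 877 and 901 with it kept.

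**Figure D5:**
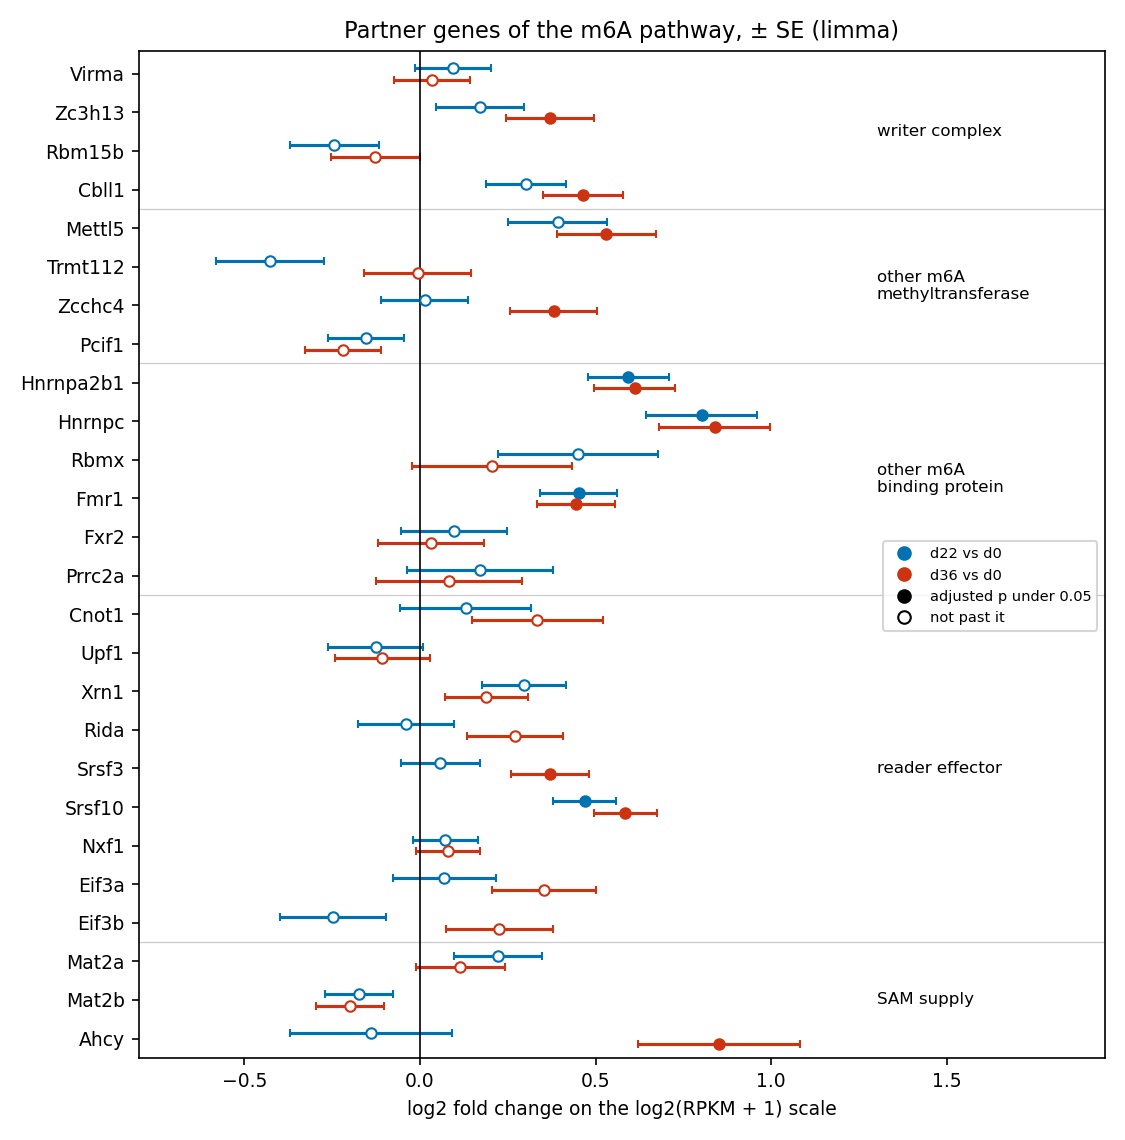
Log2 fold changes on the log2(RPKM + 1) scale (horizontal axis) of the 26 tested partner genes, grouped by role, for d22 and d36 against d0 with the SE of limma; filled points passed an adjusted p of 0.05. Hnrnpa2b1, Hnrnpc, Fmr1 and Srsf10 are filled at both times, and the other 6 filled points are at d36.

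A pair of the partners was higher in d36 replicates 1, 7 and 8 than in replicate 9. Ahcy, which clears the by-product of methylation S-adenosylhomocysteine, was at 5.69, 3.68 and 3.27 RPKM in d36 replicates 1, 7 and 8 and at 1.04 RPKM in d36 replicate 9, against 1.43, 1.31, 1.03 and 1.26 RPKM at d0. It rose by a log2 fold change of 0.85 against d0 and 0.99 against d22 (limma adjusted p = 0.0142 and 0.0116). When only the 2 groups compared were fitted, both calls were lost (limma adjusted p = 0.0833 and 0.0857). Igf2bp2, an RNA-binding protein that stabilises marked transcripts, was at 6.67, 4.59 and 4.18 RPKM in d36 replicates 1, 7 and 8, at 0.156 RPKM in d36 replicate 9, and at or below 0.0781 RPKM in all other libraries. It was listed at 0 in every d0 library and did not pass the filter on low values, so it was not tested. The tumour cell genes summed to 300.5, 215.8 and 170.5 RPKM in replicates 1, 7 and 8 and to 22.4 RPKM in replicate 9. Cell cycle genes (102.1 to 146.0 RPKM, against 29.5 RPKM) and leukocyte genes (59.4 to 142.0 RPKM, against 46.1 RPKM) were also higher in those 3 libraries than in replicate 9, and the part of any of these in the levels of Ahcy and Igf2bp2 was not tested. Ythdf3, Alkbh5 and Ythdf2 did not have this pattern: in replicate 9 they were at 5.88, 5.97 and 31.4 RPKM, above every d0 library. Without d36 replicate 9, their log2 fold changes against d0 were 1.05, 0.61 and 0.49.

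Of the 7 other AlkB relatives, 1, 2 and 1 fell at d15, d22 and d36 against d0, beside the 0.573%, 7.10% and 7.37% of all entries that did, and 0 rose in limma, with 3, 6 and 2 of the 7 at an unadjusted p under 0.05 in either direction. With 7 genes, these counts say nothing about the family. Alkbh4, an actin-linked demethylase of the family, was at 5.20, 6.46, 6.47 and 7.18 RPKM at d15, against 11.1, 8.91, 9.85 and 11.0 RPKM at d0. It stayed at 6.51 ± 1.16 RPKM at d22 and 6.49 ± 0.664 RPKM at d36, against 10.2 ± 1.03 RPKM at d0 (SD, n = 4 each). All 12 later libraries lay below all 4 d0 libraries, and the log2 fold change was -0.62, -0.59 and -0.58 (limma adjusted p = 0.0289, 0.00631 and 0.00385). The call at d15 was lost when any of d0 replicates 1, 3 and 4 or d15 replicates 3, 4 and 5 was left out (log2 fold changes -0.54 to -0.63). Alkbh6 fell by 0.51 at d22 against d0 (limma adjusted p = 0.0253), a call that was lost without any of d0 replicates 1 to 4 or d22 replicates 1 and 6 (log2 fold changes -0.46 to -0.52). Alkbh8 did not pass, and its d22 libraries, at 2.13 to 2.97 RPKM, lay above those of d0, at 1.46 to 2.07 RPKM.

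The genes lie on 9 chromosomes (GRCm38, GENCODE M21). Ythdf3 spans chr3:16183212-16217037 on the plus strand and Mettl14 chr3:123368297-123386108 on the minus strand. Ythdf1 spans chr2:180904377-180920949 and Ythdf2 chr4:132184912-132212303, both on the minus strand. Ythdc1 spans chr5:86804221-86836659 and Ythdc2 chr18:44827746-44889724, both on the plus strand. Mettl3 spans chr14:52294841-52305128 and Wtap chr17:12966796-12994169, both on the minus strand, and Fto chr8:91313525-91668439 and Alkbh5 chr11:60536381-60558512, both on the plus strand. All 10 are annotated as protein coding, with 2 annotated transcripts for Alkbh5 and up to 15 for Mettl3, and RPKM values of the whole gene do not tell these transcripts apart.

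Among the genes whose log2(RPKM + 1) values were most like those of Ythdf3 over the 16 libraries were Kif5b (Pearson r = 0.953), Rock1 (0.952), Ssr3 (0.947) and Sucla2 (0.943). Kif5b codes for a kinesin motor, Rock1 for a protein kinase, Ssr3 for a subunit of the translocon-associated complex and Sucla2 for a subunit of succinyl-CoA ligase. Kif5b averaged 4.02, 5.79, 10.2 and 10.6 RPKM at d0, d15, d22 and d36, the same order of groups as Ythdf3. The genes most like Alkbh5 were Ep300 (0.903), Tcf7l2 (0.900), Dnajb9 (0.896), Hmgn5 (0.892) and Ptpn11 (0.890). Ep300 codes for a histone acetyltransferase, Tcf7l2 for a factor of Wnt signalling, Dnajb9 for a chaperone of the endoplasmic reticulum, Hmgn5 for a nucleosome-binding protein and Ptpn11 for a tyrosine phosphatase. The points share the 4 groups and the libraries, so these values describe likeness and carry no test.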

How the data were processed

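Per the labels' protocols, libraries were made with the SMARTer Ultra Low kit from 10 ng of RNA isolated with PicoPure reagents. The authors deposited a table of RPKM values for 16 libraries, per the file headers. That table also carries, per the file headers, a column of log2 fold changes and a column of adjusted p-values by the authors at each of the 3 later times, without saying what they are set against. Over 9884 entries above 2 RPKM at d0, these fold changes follow the log2 ratio to d0 (r = 0.996 or more). The submitters' processing notes name STAR, DESeq2 and mm10 without versions. The annotation, the length behind RPKM and any filters are not given in the sources used here.

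Values were analysed as log2(RPKM + 1). The 14303 of 17715 entries that reached 1 RPKM in 4 libraries or more were fitted with limma 3.58.1 in R 4.3.3, with an intensity trend, 4 groups in a single fit and no covariate. Groups were compared two-sided with Benjamini-Hochberg adjustment within each of 5 comparisons, at 0.05. All 10 genes passed the filter on low values. The fit was tested on simulated data. The genes and all lists were chosen with earlier results of these data known. Every one of the 10 genes is named; of the partners, up to 10 with the smallest p among those past the threshold in a comparison, and those absent or not tested; of the AlkB relatives, those past it; and, for the 2 genes with the largest span of group means, the 5 entries with the highest r, of which 1 is not reported here. Gene models were the longest transcripts of GENCODE M21 (GRCm38), matched for 11857 entries. The alternatives tried were a pseudocount of 0.1, no filter, median-of-ratios scaling, only the 2 groups compared, array weights, a replicate block, removal of a trend on length and GC (splines with 4 degrees of freedom) and leaving out each library.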

Additional observations from a re-analysis of the deposited data

Results flagged for a closer look

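Within the 40 groups of 4 libraries (10 genes at 4 times), 5 held a library set apart from the other 3 by a gap past the limit of Dixon's test for a single far value. Chance gives about 1 in 20 groups, and all 5 were the lowest library of their group. Wtap was at 27.6 RPKM in d0 replicate 4, against 46.5 to 47.6 RPKM in the other 3 d0 libraries. Ythdc2 was at 0.432 RPKM in d15 replicate 6, against 0.754 to 0.775 RPKM. Ythdf1 was at 7.14 RPKM in d15 replicate 5, against 8.99 to 9.34 RPKM. Mettl3 was at 15.4 RPKM in d22 replicate 4, against 18.5 to 19.1 RPKM. Mettl14 was at 6.35 RPKM in d22 replicate 6, against 7.37 to 7.48 RPKM.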

How the results depend on the processing

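Over 750 values of the 10 genes' log2 fold changes under alternatives, 33 moved by at least the SD between replicates and 1 changed direction past the threshold: Ythdc1 at d22 against d0, at -0.29 with the trend on length and GC removed. That setting left 0 of the 10 genes past the threshold at d22 against d15 (1 as reported), and array weights gave 2. Of all entries there, 45 rose and 49 fell of 10113 with the trend removed, and 852 and 429 of 14303 with array weights. Whether the replicate numbers of the titles pair the libraries was not tested. Deviations from the group means correlated at -0.111 to 0.216 between same-numbered libraries, and differently numbered libraries were not taken as a reference. With the replicate block, 0, 1 and 1 of the 10 genes passed at d15, d22 and d36 against d0, where 1, 2 and 3 passed without it, and 4 partners passed at d36, where 10 did without it. Of all 14303 entries, 79, 983 and 965 rose with the block in that order, and 23, 310 and 169 fell. Leaving out single libraries gave 0 to 1 of the 10 genes at d15 (Ythdf3 was lost without d15 replicate 5), 1 to 2 at d22 (Ythdc2 was lost without d0 replicates 2 or 3 or d22 replicates 1 or 6), 2 to 4 at d36 (Ythdf2 was lost without d0 replicate 4 or d36 replicate 1), 0 to 1 at d22 against d15 (Ythdf3 was lost without d15 replicates 4 or 6 or d22 replicates 5 or 6) and 0 to 1 at d36 against d22. For the partners it gave 0 at d15, 4 to 5 at d22, 7 to 11 at d36, 0 to 2 at d22 against d15 and 1 to 7 at d36 against d22, the 7 without d36 replicate 9. Of all 14303 entries, 14 to 41, 720 to 1030, 1788 to 3115, 80 to 281 and 712 to 2291 rose in that order. From 10 to 48, 446 to 761, 638 to 1898, 41 to 213 and 160 to 1480 fell. The 2291 risen and 1480 fallen were those without d36 replicate 9. The 7 is therefore not read as a result about the partners. At d22 against d0, 8 partners passed with only the 2 groups compared, where 1785 of all 14303 entries rose and 1464 fell. With array weights 9 passed, beside 2198 and 1747. At d36 against d0, 6 passed with only the 2 groups compared, beside 1524 and 528. With the trend removed 5 passed, beside 1020 and 1513 of 10113. At d22 against d15, 1 passed with median-of-ratios scaling, beside 250 and 266. With the trend removed 0 passed, beside 45 and 49 of 10113. At d36 against d22, 2 passed with no filter, beside 1822 and 551 of 17715. With only the 2 groups compared 0 passed, beside 359 and 57. With array weights 7 passed, beside 2553 and 1464. Nothing is read from these counts. The partners' own values under alternatives were added after the data had been seen. The causes were not tested. With 4 libraries a group and values near 1 RPKM for Ythdc1 and Ythdc2, small differences are beyond the precision of these data.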
